A study of Mus musculus with 8 samples.

Results

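Translation initiation factor genes were taken as the protein-coding mouse genes whose symbols run from Eif1 to Eif6, without the Eif2ak kinases and without pseudogenes, that had at least 10 counts in at least 4 of the 8 samples. Of 51 such symbols 50 met the minimum, among 19176 genes tested in the exonic count table. Eif4e1b, a germline relative of the cap-binding protein, stayed under it with 3, 0, 1 and 0 counts in Pilo and 0 counts in each of the 4 Mock samples. The 50 genes were set into 7 roles: 5 eIF1 and eIF1A scanning factors, 6 genes of eIF2 and its relatives, 5 eIF2B subunits, 14 eIF3 subunit genes, 11 eIF4F and helicase genes, 4 eIF4E-binding inhibitors, and 5 subunit-joining and late factors.

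The samples were polyadenylated RNA of nuclei isolated by INTACT, a pull-down with an antibody to GFP of nuclei that carry SUN1-sfGFP, a tagged protein of the nuclear envelope. All mice were male C57BL/6J of 6 to 8 weeks with the genotype CaMKIIalpha-Cre:SUN1-sfGFP, so the tag was limited to cells in which the CaMKIIalpha promoter drives Cre, mostly forebrain excitatory neurons. Mice of the 4 Pilo samples received scopolamine methyl nitrate at 1 mg/kg and, 30 min later, pilocarpine hydrochloride at 340 mg/kg, and mice that showed seizures of Racine scores 3 to 5 over 100 min were used. Mice of the 4 Mock samples received the same scopolamine dose and saline. The comparison is of pilocarpine with seizures against saline. Effects of the drug, of the seizures and of choosing mice by seizure score cannot be told apart.

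Initiation brings the small ribosomal subunit, the initiator tRNA carried by eIF2, and a capped mRNA together. eIF1, eIF1A and eIF3 act on the small subunit, eIF4F (the cap-binding eIF4E, the scaffold eIF4G and the helicase eIF4A) recruits the mRNA, and eIF5, eIF5B, eIF5A and eIF6 act at start-codon recognition, subunit joining or later. Neurons regulate this step through phosphorylation of eIF2, which inhibits its exchange factor eIF2B, and through mTORC1, which releases eIF4E from its binding proteins. RNA in nuclei reports transcription, splicing and export, and carries no measure of the proteins or of their phosphorylation.

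Exonic counts ran from 29356788 to 36161448 per sample over both groups, and intronic counts from 11928054 to 16703475. Intronic counts made up 29.2 to 30.6% of all counts of the second table in Pilo and 31.9 to 33.7% in Mock, groups that did not overlap. Fos, an activity-induced gene, had 112, 123, 186 and 132 exonic CPM (counts scaled to a common library size) in Pilo, against 8.29, 12.7, 8.90 and 29.2 CPM in Mock, so that every Pilo sample was above every Mock sample. The summed level of 5 excitatory neuron markers was 2351 to 2843 CPM in Pilo and 2107 to 2718 CPM in Mock. The summed markers of inhibitory neurons were at 153 to 239.7 CPM in Pilo and 117 to 154 CPM in Mock, and those of oligodendrocytes at 359 to 641 CPM in Pilo and 279 to 379.6 CPM in Mock. Astrocyte markers were at 114 to 304 CPM in Pilo and 111 to 234 CPM in Mock, and precursor markers of oligodendrocytes at 27.1 to 63.0 CPM in Pilo and 23.5 to 43.9 CPM in Mock. Microglial markers were at 12.2 to 19.0 CPM in Pilo and 10.8 to 15.8 CPM in Mock, endothelial markers at 5.68 to 36.8 CPM in Pilo and 3.84 to 12.9 CPM in Mock, and no marker was at 0. Of these markers 2 of 5 excitatory, 2 of 6 inhibitory, 1 of 5 oligodendrocyte and 1 of 4 precursor genes rose, and the part of other cell types in the results below was not tested. In bulk nuclei, a change in the number of nuclei of a type and a change in RNA per nucleus cannot be told apart. Columns 2 and 3 of each group in the exonic table matched columns 3 and 2 of the exon and intron table: across 14014 genes each column correlated at 0.993 to 0.996 with its best match, and those 4 at -0.57 to -0.63 with their namesake. Numbers are therefore given as each table names them.

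Among the 50 initiation factor genes, 17 rose and 8 fell in the Pilo nuclei in exonic counts, and 25 did not pass the test (edgeR's quasi-likelihood test, Benjamini-Hochberg adjusted p under 0.05 over all genes). Over all genes tested 15.6% rose and 16.2% fell, so the share of members that rose, 34%, was above the background and the share that fell, 16%, was at it in this fit. That background depends on the count filter. With a minimum count of 50, 2630 of 14673 genes rose and 3092 fell, beside the same 17 and 8 members. The median exonic log2 fold change was 0.18 over the members and 0.005 over all genes. The rises were modest: they ran from 0.22 for Eif4g1 to 0.71 for Eif6, a 1.63-fold higher level, with a median of 0.46. The falls ran from -0.22 for Eif4e to -0.74 for Eif4e2, with a median of -0.32. The 3 scanning factors that moved, the 3 late factors that moved and 6 of 8 eIF3 subunit genes that moved rose. In this test all 3 genes that moved among eIF2 and its relatives fell. Of these falls, those of Eif2d and Eif2s2 lost their call in most fits that left out 1 library. Eif2s3x, of the same role, missed the threshold here (adjusted p = 0.0551) and passed as higher under some of the alternatives given below. The members together held 0.423 to 0.453% of exonic counts in Pilo and 0.393 to 0.402% in Mock.

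Groups did not overlap for 19 members that were higher in Pilo and 7 that were lower, beside 15.7% and 16.2% of all genes. Of the 25 called members, 23 had groups that did not overlap; Eif2b4 and Eif2s2 were the exceptions. With the replicate number as a block, 27 members rose and 9 fell, against 23.8% and 23.2% of all genes in that fit. The members that passed with the block and not without it were Eif2s3x, Eif2b5, Eif3c, Eif3e, Eif3g, Eif3m, Eif4a2, Eif4g2, Eif4g3 and Eif4h, all higher, and Eif4ebp1, lower. Of these 11, 10 also passed without the block under at least 1 other alternative or without 1 library, and Eif4a2 did not. Without Pilo replicate 4, Mock replicate 1 or Mock replicate 3, 4 members fell, and 5 fell without Pilo replicate 2 or Mock replicate 2. Over all genes the falls also dropped in these fits, from 3107 to 2356, 2399, 2501, 2665 and 2624 in that order. Without any 1 library 16 to 20 members rose, beside 2487 to 3113 of all genes (2994 in the full fit). Eif4e, Eif2d, Eif3k and Eif2s2 were the falls, and Eif4g1 the rise, that lost their call without at least 1 library. With no filter on low counts Eif3k, Eif4e and Eif4g1 also lost it (adjusted p = 0.085, 0.0656 and 0.0691). The same 25 members were called in the same direction from the exonic columns of the second table, where 16.5% of all genes rose and 17.5% fell. Those columns count the same libraries again, so they are no separate test of the calls. Without any 1 library 6 to 10 members fell there.

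**Figure D1:**
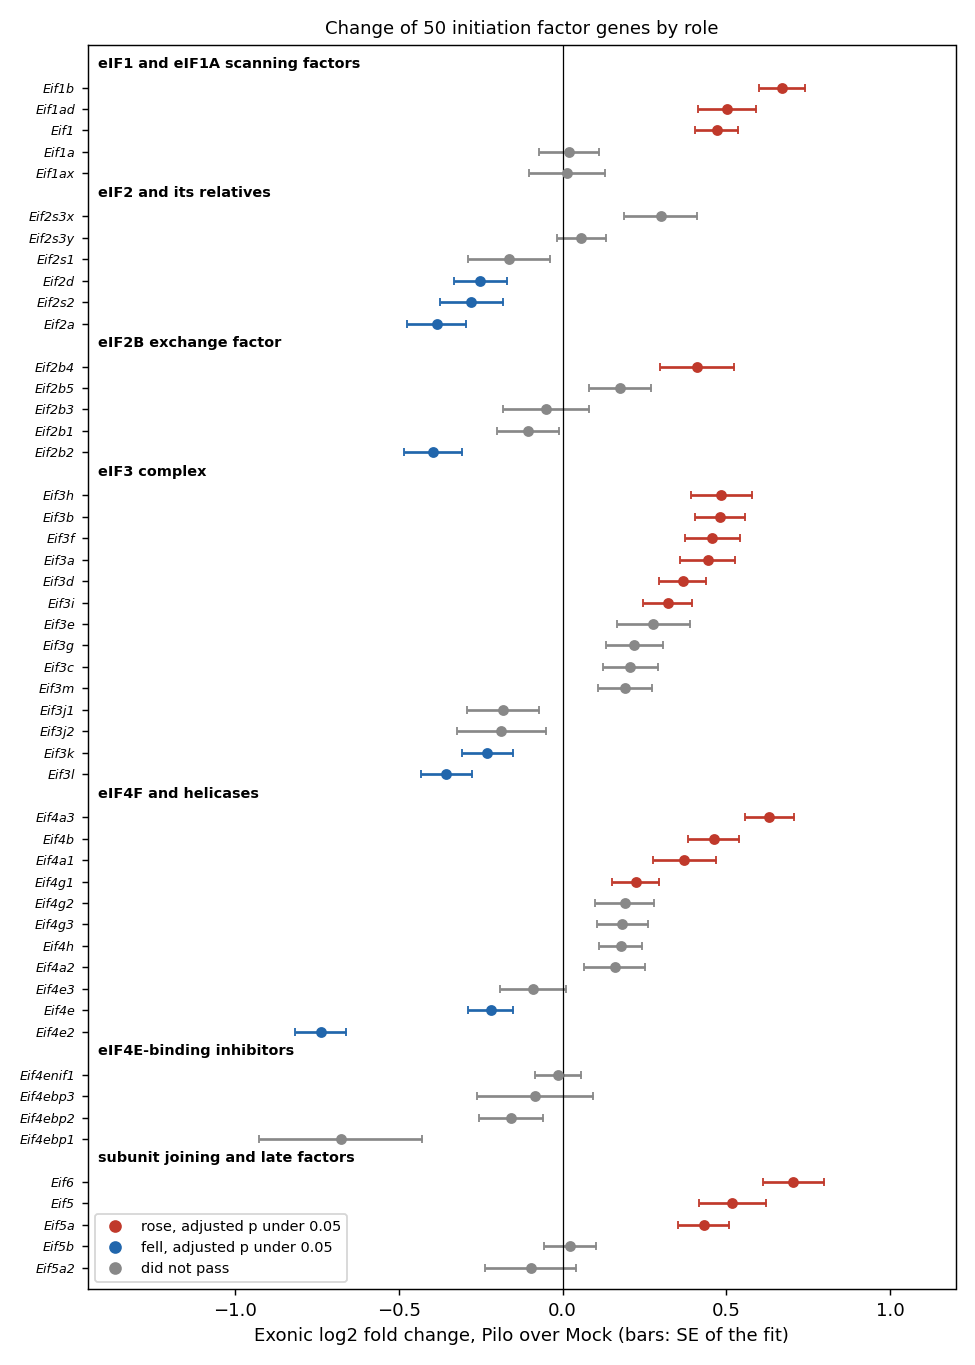
Exonic log2 fold change, Pilo over Mock, of the 50 initiation factor genes, grouped by role and sorted within each role, with the SE of the fit as bars. Red points rose and blue points fell at an adjusted p under 0.05; Eif6 at 0.71 and Eif1b at 0.67 lie farthest right, and Eif4e2 at -0.74 farthest left.

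Promoters were read for letters that members of several roles share. RefSeq promoters (assembly GRCm38.p6, 250 bases before to 50 after each start) were found for 39 of the 50 genes. The E-box CACGTG, the letters bound by Myc, Max and other basic helix-loop-helix proteins and palindromic over both strands, was in the promoters of 10 of the 39 members (25.6%), against 8.09% of 27025 genes with a promoter in the table. The 10 were Eif1b, Eif3a, Eif3f, Eif3k, Eif4a1, Eif4e, Eif4g1, Eif4h, Eif5a and Eif5a2. By call, 6 of 14 members that rose, 2 of 8 that fell and 2 of 17 that did not pass held it. The windows below, 20 bases either side of an E-box upstream of the start, are shown because they carry this motif in members called in each direction. Capitals mark the motif, and each window is written 5′ to 3′ on the strand of its gene.
Eif1b at chr9:120492562-120492607, plus strand: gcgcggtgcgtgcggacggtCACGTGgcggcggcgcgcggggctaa
Eif3f at chr7:108934327-108934372, plus strand: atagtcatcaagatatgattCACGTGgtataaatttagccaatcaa
Eif4a1 at chr11:69672587-69672632, minus strand: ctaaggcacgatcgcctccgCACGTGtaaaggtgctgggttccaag
Eif4g1 at chr16:20672653-20672698, plus strand: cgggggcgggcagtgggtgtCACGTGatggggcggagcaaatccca
Eif5a at chr11:69921435-69921480, minus strand: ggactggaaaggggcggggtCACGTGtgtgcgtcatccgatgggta
Eif3k at chr7:28981907-28981952, minus strand: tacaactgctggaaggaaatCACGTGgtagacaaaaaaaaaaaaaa
Eif4e at chr3:138527184-138527229, plus strand: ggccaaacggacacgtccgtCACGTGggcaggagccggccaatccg
The first 5 genes rose and the last 2, Eif3k and Eif4e, fell, so the motif occurred in members of both directions. The AP-1 letters TGANTCA, read on both strands, were in 4 of the 39 members (10.3%), against 8.97% of genes. One of them was Eif1, shown because it rose and its site lies 157 bases before the start.
Eif1 at chr11:100319772-100319818, plus strand: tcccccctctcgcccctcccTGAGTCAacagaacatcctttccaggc
In Eif3f the AP-1 letters overlap the E-box by 2 bases, and the other 2 members were Eif3j1 and Eif3l. The full cyclic AMP response element TGACGTCA was in none of the 39, against 2.03% of genes, and its shorter form TGACG, read on both strands and also contained in the full element, was in 21 (53.8%), against 23% of genes. This shorter form was in 8 of 14 members that rose, 6 of 8 that fell and 7 of 17 that did not pass. TGATGNAA, letters bound by ATF4 with a CEBP partner, was in Eif2s3x alone, 1 of the 39, against 4.51% of genes. A match of letters describes a promoter and was not tested as a binding site, and base composition was not matched between members and other genes.

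The rises of smallest p were in the scanning factors Eif1 and Eif1b, in the helicase Eif4a3, and in the late factor Eif6. Values by sample for the 12 members of smallest p are drawn in the plot of exonic CPM by sample.

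**Figure D2:**
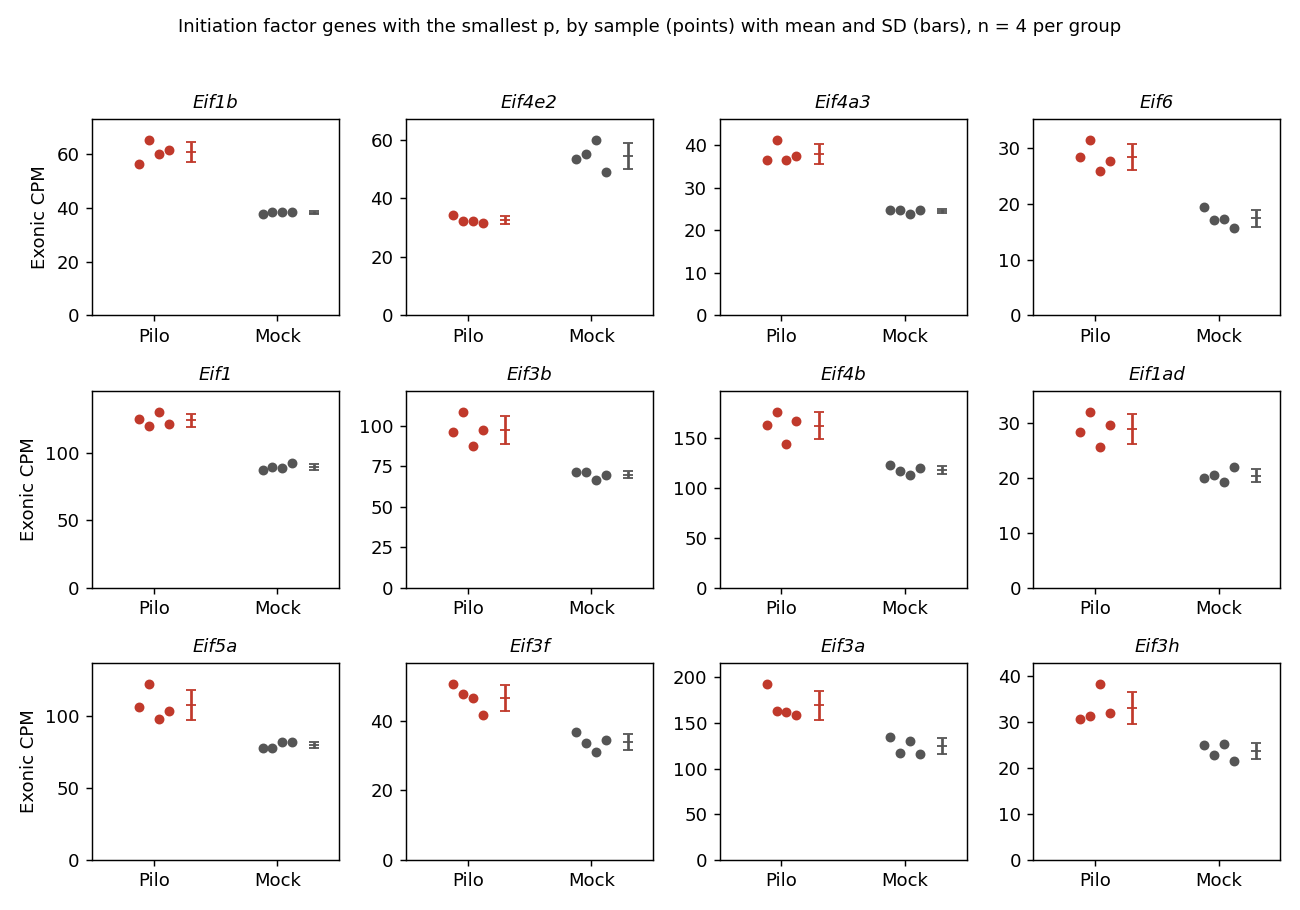
Exonic CPM in each sample (points) for the 12 initiation factor genes of smallest p, Pilo left of Mock, with the mean and SD of 4 samples as bars; each panel starts at 0. In all 12 panels the groups did not overlap: 11 genes were higher in every Pilo sample, as Eif1b at 60.8 ± 3.66 CPM in Pilo and 38.2 ± 0.440 CPM in Mock (SD, n = 4 each), and Eif4e2 was lower in every Pilo sample.

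Exonic and intronic counts were compared next, since introns are spliced out soon after they are made and their counts come from RNA not yet fully processed. Of the 48 members with intronic counts that could be tested, 20 rose and 13 fell in introns, against 19.6% and 21.9% of all genes. Without the replicate block no member was called in opposite directions in exons and introns: 15 of 17 exonic rises also rose in introns, and 7 of 8 exonic falls also fell there. Eif3d, Eif4a1 and Eif2d were called in exons and not in introns. The other 11 intronic calls belonged to genes without an exonic call, 5 higher and 6 lower. With the replicate block 24 members rose and 18 fell in introns, against 27.7% and 29.2% of all genes. In that fit Eif3d, Eif4a1 and Eif2d also passed in introns, in their exonic direction (adjusted p = 0.0439, 0.0243 and 0.00641). There 2 members were called in opposite directions, higher in exons and lower in introns. They were Eif3e (adjusted p = 0.00256 and 0.00933) and Eif4g3 (0.00603 and 0.0216). Intronic groups did not overlap for 18 members that were higher in Pilo and 11 that were lower, beside 17.8% and 19.2% of all genes. Across the 48 members the exonic and intronic log2 fold changes, which share samples, had a Pearson r of 0.83.

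The exonic and the intronic change differed from each other in 19 of the 48 members (interaction of region and treatment in edgeR's quasi-likelihood test). The exonic change was the higher in 8 and the lower in 11, where 13.4% and 13% of all genes passed in those directions. Each difference is relative to the average of its region, since exonic and intronic libraries were scaled separately. With 1 scaling factor per sample the median of all genes moved to 0.26 on the log2 scale, and 26 members passed with the exonic change higher and 1, Eif3m, with it lower. In that fit 44.6% and 3.11% of all genes passed in those directions. All 8 differences in which the exonic change was the higher kept their call then, and 10 of the 11 in which it was the lower lost it. With the replicate block 13 passed in each direction, where 20.4% and 18.8% of all genes did. The members added were Eif3k, Eif4a1, Eif4e, Eif5b and Eif6 with the exonic change higher, and Eif1 and Eif5a with it lower.

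**Figure D3:**
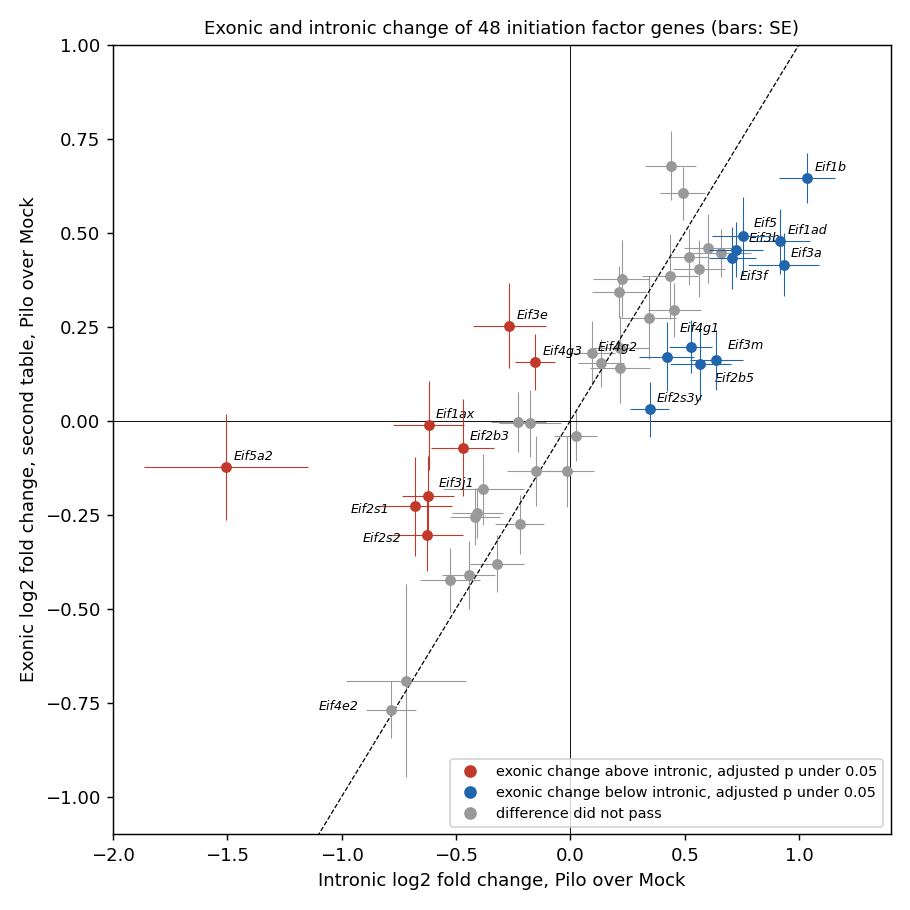
Intronic (x axis) against exonic (y axis, second table) log2 fold change, Pilo over Mock, of 48 initiation factor genes, with SE as bars and equality as a dashed line. Red genes lie above the line and blue genes below it by more than the test allows; Eif5a2, at an intronic change of -1.51 and an exonic change near 0, lies farthest from it.

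Among the scanning factors, Eif1 and Eif1b, paralogs that keep the scanning small subunit from starting at wrong codons, both rose. Eif1ad also rose, and was set in this role only for the eIF1A-like domain of its protein. Eif1b had 56.4, 65.2, 60.0 and 61.5 CPM in Pilo, against 37.5, 38.4, 38.5 and 38.3 CPM in Mock (exonic log2 fold change 0.67 ± 0.07 (SE), adjusted p = 1.96e-05). Eif1 had 125, 119.7, 130.2 and 121 CPM in Pilo, against 87.3, 89.6, 88.8 and 92.3 CPM in Mock (exonic log2 fold change 0.47 ± 0.065 (SE), adjusted p = 1.57e-04). Both paralogs were higher in every Pilo sample than in any Mock sample, at 59.2 CPM per kb in Pilo and 42.7 in Mock for Eif1 and 54.0 CPM per kb in Pilo and 33.9 in Mock for Eif1b once exonic CPM was divided by the kilobases of merged exons. Eif1ad had 28.3, 32.0, 25.6 and 29.7 CPM in Pilo, against 20.0, 20.5, 19.2 and 22.0 CPM in Mock (exonic log2 fold change 0.50 ± 0.089 (SE), adjusted p = 9.18e-04). It also stood clear of Mock, and its exons overlap those of Banf1 on the other strand, which differed by 0.066 ± 0.11 (SE) on the log2 scale, adjusted p = 0.707. Whether counting used strand is not given in the sources used here, so reads of such overlapping genes may not have been told apart. The exonic change of Eif1a, which encodes eIF1A, was 0.02 ± 0.092 (SE), and that of its X-linked copy Eif1ax 0.014 ± 0.12; neither passed the test. Of the 50-base windows in Eif1 exons, 19.2% also occur in another annotated gene, and of those in Eif1b 4.20%. Eif1b overlaps the antisense gene D830035M03Rik, whose log2 fold change was -0.72 ± 0.30 (SE), adjusted p = 0.0801.

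In introns the same 3 genes rose and Eif1ax fell. Eif1b introns had 56.4, 69.8, 75.6 and 67.4 CPM in Pilo, against 29.4, 29.6, 38.6 and 33.8 CPM in Mock (intronic log2 fold change 1.03 ± 0.12 (SE), adjusted p = 1.67e-05). Eif1 introns had 27.9, 30.8, 31.7 and 27.7 CPM in Pilo, against 17.4, 15.6, 20.7 and 21.1 CPM in Mock (intronic log2 fold change 0.66 ± 0.13 (SE), adjusted p = 8.86e-04). Eif1ad introns had 36.4, 32.4, 35.9 and 38.1 CPM in Pilo, against 17.1, 15.7, 21.1 and 21.8 CPM in Mock (intronic log2 fold change 0.92 ± 0.13 (SE), adjusted p = 7.53e-05). All 3 sets of introns were higher in every Pilo sample, and for Eif1b and Eif1ad the intronic rise was above the exonic rise (-0.39 ± 0.094 (SE) and -0.45 ± 0.10 for exonic minus intronic, adjusted p = 0.00831 and 0.00454). Eif1ax introns had 6.01, 6.42, 5.62 and 6.84 CPM in Pilo, against 10.4, 9.93, 9.30 and 8.62 CPM in Mock (intronic log2 fold change -0.62 ± 0.15 (SE), adjusted p = 0.00486). Every Pilo sample was below every Mock sample there, and the exonic change was higher than the intronic one by 0.61 ± 0.12 (SE), adjusted p = 0.00338.

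Without the replicate block and with TMM scaling in edgeR, no gene of eIF2 or its relatives rose in exons, and 3 of 6 fell: Eif2s2, the beta subunit of the complex that carries initiator tRNA; Eif2a, which encodes a separate protein that can deliver initiator tRNA to some mRNAs; and Eif2d, an initiation and recycling factor. Eif2a averaged 35.6 ± 3.25 CPM in Pilo and 46.5 ± 4.29 CPM in Mock (SD, n = 4 each), with an exonic log2 fold change of -0.38 ± 0.09 (SE) and adjusted p = 0.00546. Eif2d averaged 74.2 ± 7.07 CPM in Pilo and 88.3 ± 4.68 CPM in Mock (SD, n = 4 each), with an exonic log2 fold change of -0.25 ± 0.081 (SE) and adjusted p = 0.0305. Eif2s2 averaged 28.5 ± 3.45 CPM in Pilo and 34.6 ± 2.59 CPM in Mock (SD, n = 4 each), with an exonic log2 fold change of -0.28 ± 0.10 (SE) and adjusted p = 0.0406. Eif2a and Eif2d were lower in every Pilo sample, whereas the groups of Eif2s2 overlapped, and the calls of Eif2d and Eif2s2 were lost without any of 6 and any of 7 single libraries. The call of Eif2d held without Pilo replicate 2 or Mock replicate 4, and that of Eif2s2 held without Pilo replicate 1. The annotated span of Eif2a overlaps that of Serp1 on the other strand, which rose (0.27 ± 0.092 (SE), adjusted p = 0.0409). Exons of Eif2d overlap those of Rassf5 on the other strand, which rose by 1.07 ± 0.092 (SE) on the log2 scale, adjusted p = 5.88e-06. The alpha subunit Eif2s1, the target of the stress kinases, had an exonic change of -0.16 ± 0.12 (SE), adjusted p = 0.349.

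The gamma subunit is encoded by an X-linked and a Y-linked copy in these male mice. Eif2s3x exons had 17.4, 14.9, 16.3 and 13.1 CPM in Pilo, against 12.3, 11.0, 13.7 and 13.1 CPM in Mock (exonic log2 fold change 0.30 ± 0.11 (SE), adjusted p = 0.0551). Eif2s3y exons had 276, 299.7, 264 and 279 CPM in Pilo, against 264, 284, 248 and 279 CPM in Mock (exonic log2 fold change 0.058 ± 0.075 (SE), adjusted p = 0.607). The groups of both copies overlapped in exons. Eif2s3x missed the threshold, but passed as higher with the replicate block, RLE size factors, DESeq2 and summed exonic and intronic counts (adjusted p = 0.0139, 0.049, 0.0366 and 0.0285). It also passed without Pilo replicate 4 or Mock replicate 3 (adjusted p = 0.0324 and 0.0408). Per kilobase the Y-linked copy was the higher, at 67.2 CPM per kb in Pilo and 64.6 in Mock, against 4.05 CPM per kb in Pilo and 3.29 in Mock for the X-linked one. Of the 50-base windows of Eif2s3x exons 34.6% also occur elsewhere, most often in the pseudogene Gm2223, so the counts of Eif2s3x are uncertain.

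Both gamma copies rose in introns while the other 2 subunits fell there. Eif2s3y introns had 254, 256, 246 and 225 CPM in Pilo, against 198, 189, 194 and 192 CPM in Mock (intronic log2 fold change 0.35 ± 0.085 (SE), adjusted p = 0.00421). Eif2s3x introns had 26.6, 21.5, 24.4 and 22.1 CPM in Pilo, against 18.6, 19.7, 18.1 and 18.2 CPM in Mock (intronic log2 fold change 0.34 ± 0.12 (SE), adjusted p = 0.0319). Pilo was above Mock in every sample for both, and Eif2s3x lost its intronic call without any of 5 single libraries (Pilo 1, Pilo 3, Mock 1, Mock 3 or Mock 4), with adjusted p up to 0.0814. Eif2s1 introns had 23.2, 12.8, 15.3 and 15.5 CPM in Pilo, against 27.9, 27.7, 27.2 and 24.3 CPM in Mock (intronic log2 fold change -0.68 ± 0.16 (SE), adjusted p = 0.00354). Eif2s2 introns had 34.3, 18.9, 23.7 and 23.9 CPM in Pilo, against 39.1, 39.5, 43.1 and 34.1 CPM in Mock (intronic log2 fold change -0.63 ± 0.16 (SE), adjusted p = 0.00501). Eif2a introns had 62.5, 49.0, 49.8 and 51.9 CPM in Pilo, against 67.1, 82.3, 77.4 and 63.5 CPM in Mock (intronic log2 fold change -0.45 ± 0.12 (SE), adjusted p = 0.00649). Pilo was below Mock in every sample for Eif2s1 and Eif2a and overlapped Mock for Eif2s2. The exonic change was higher than the intronic change for Eif2s1 (0.46 ± 0.13 (SE), adjusted p = 0.0158) and Eif2s2 (0.33 ± 0.11, adjusted p = 0.0347), and lower for Eif2s3y (-0.31 ± 0.071, adjusted p = 0.00626). The difference for Eif2s2 was lost without any of 5 single libraries (Pilo 2, Pilo 3, Pilo 4, Mock 1 or Mock 3).

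The 5 subunits of eIF2B, the factor that reloads eIF2 with GTP, did not move together. Eif2b4, the delta subunit of its regulatory core, averaged 68.8 ± 9.17 CPM in Pilo and 51.7 ± 6.55 CPM in Mock (SD, n = 4 each), with an exonic log2 fold change of 0.41 ± 0.11 (SE) and adjusted p = 0.0135. Eif2b2, the beta subunit of the same core, averaged 19.8 ± 1.60 CPM in Pilo and 26.0 ± 1.73 CPM in Mock (SD, n = 4 each), with an exonic log2 fold change of -0.40 ± 0.089 (SE) and adjusted p = 0.00395. Eif2b4 rose although its groups overlapped, and Eif2b2 fell with every Pilo sample below every Mock sample. The alpha subunit Eif2b1 differed by -0.11 ± 0.095 (SE) and the gamma subunit Eif2b3 by -0.051 ± 0.13, and neither passed. Eif2b5, the catalytic epsilon subunit, differed by 0.18 ± 0.095 (SE), adjusted p = 0.181, and 0.0283 with the replicate block. Exons of Eif2b4 overlap those of Snx17 on the other strand, whose log2 fold change was -0.028 ± 0.100 (SE), adjusted p = 0.864.

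Introns of Eif2b5 had 74.5, 51.4, 72.5 and 74.4 CPM in Pilo, against 48.4, 39.0, 44.6 and 52.1 CPM in Mock (intronic log2 fold change 0.57 ± 0.13 (SE), adjusted p = 0.00312). Introns of Eif2b4 had 115, 86.2, 116 and 110.3 CPM in Pilo, against 80.8, 63.8, 89.2 and 82.8 CPM in Mock (intronic log2 fold change 0.44 ± 0.12 (SE), adjusted p = 0.0104). In Eif2b5 1 Pilo sample, number 2, lay among the Mock values and the other 3 lay above them, and in Eif2b4 the same sample overlapped Mock. Introns of Eif2b2 had 37.7, 26.7, 35.5 and 33.4 CPM in Pilo, against 45.1, 43.0, 57.2 and 47.1 CPM in Mock (intronic log2 fold change -0.53 ± 0.13 (SE), adjusted p = 0.00463). Introns of Eif2b3 had 16.7, 22.8, 19.6 and 17.8 CPM in Pilo, against 21.9, 27.2, 29.1 and 28.4 CPM in Mock (intronic log2 fold change -0.47 ± 0.14 (SE), adjusted p = 0.0121). Eif2b2 was lower in every Pilo sample, while the groups of Eif2b3 overlapped. The exonic change was lower than the intronic one for Eif2b5 (-0.42 ± 0.078 (SE), adjusted p = 0.00194) and higher for Eif2b3 (0.40 ± 0.11, adjusted p = 0.0207), the second lost without Pilo replicate 2 or Mock replicate 4 (adjusted p = 0.0517 and 0.0518).

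In eIF3, the large complex that holds the small subunit, 6 of 14 subunit genes rose and 2 fell, with a median exonic log2 fold change of 0.25. The rises included Eif3a and Eif3b, which encode the scaffold subunits, and Eif3d, Eif3f, Eif3h and Eif3i; the falls were Eif3k and Eif3l, which encode subunits that bind each other. Eif3b had 95.8, 108, 87.6 and 97.2 CPM in Pilo, against 71.4, 71.2, 66.7 and 69.5 CPM in Mock (exonic log2 fold change 0.48 ± 0.076 (SE), adjusted p = 3.90e-04). Eif3a had 193, 164, 162 and 159 CPM in Pilo, against 134, 117, 130.2 and 116 CPM in Mock (exonic log2 fold change 0.44 ± 0.084 (SE), adjusted p = 0.00146). Both scaffold genes were higher in every Pilo sample, and Pilo replicate 1 stood above the other 3 Pilo samples for Eif3a. Eif3f had 50.5, 47.6, 46.6 and 41.5 CPM in Pilo, against 36.7, 33.7, 31.1 and 34.3 CPM in Mock (exonic log2 fold change 0.46 ± 0.083 (SE), adjusted p = 0.00105). Eif3h had 30.6, 31.3, 38.2 and 32.0 CPM in Pilo, against 24.8, 22.8, 25.2 and 21.4 CPM in Mock (exonic log2 fold change 0.48 ± 0.093 (SE), adjusted p = 0.00157). These subunits, which share an MPN domain, also did not overlap Mock, and 20.3% of the 50-base windows of Eif3h exons occur in another gene.

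Eif3d, whose protein can itself bind the cap of some mRNAs, averaged 54.2 ± 3.25 CPM in Pilo and 42.0 ± 1.55 CPM in Mock (SD, n = 4 each), with an exonic log2 fold change of 0.37 ± 0.072 (SE) and adjusted p = 0.00172. Eif3i, a WD-repeat subunit, averaged 40.9 ± 2.35 CPM in Pilo and 32.7 ± 1.35 CPM in Mock (SD, n = 4 each), with an exonic log2 fold change of 0.32 ± 0.074 (SE) and adjusted p = 0.00497. Neither gene's groups overlapped. Of the exon windows of Eif3d, 37.2% also occur in another gene, most often in the antisense gene Gm17638. The change of Gm17638 was 0.58 ± 0.22 (SE) on the log2 scale, adjusted p = 0.0651. Eif3l averaged 37.3 ± 3.31 CPM in Pilo and 47.7 ± 1.28 CPM in Mock (SD, n = 4 each), with an exonic log2 fold change of -0.35 ± 0.078 (SE) and adjusted p = 0.0036. Eif3k averaged 30.4 ± 2.02 CPM in Pilo and 35.7 ± 1.81 CPM in Mock (SD, n = 4 each), with an exonic log2 fold change of -0.23 ± 0.078 (SE) and adjusted p = 0.039. Eif3l and Eif3k were lower in every Pilo sample; the call of Eif3l held without each library, whereas that of Eif3k held only without Pilo replicate 3 among the 8 libraries left out in turn. The changes of Eif3c, Eif3e, Eif3g and Eif3m ran from 0.19 to 0.28, and each passed with the replicate block (adjusted p = 0.00586, 0.00256, 0.00314 and 0.033). Eif3c also passed without Mock replicate 3, Eif3e without Pilo replicate 2 and Eif3g without Pilo replicate 3 (adjusted p = 0.0469, 0.0256 and 0.0155). Eif3m also passed with summed exonic and intronic counts (adjusted p = 0.00469).

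Eif3j1 and Eif3j2 are near-identical copies of the loosely bound eIF3j gene, and 91.8% of the 50-base windows of Eif3j2 exons and 50.9% of those of Eif3j1 occur elsewhere, so the counts of these copies are uncertain. Eif3j1 had 14.7, 11.6, 11.4 and 14.6 CPM in Pilo, against 14.4, 14.0, 15.4 and 15.6 CPM in Mock (exonic log2 fold change -0.18 ± 0.11 (SE), adjusted p = 0.229). Eif3j2 had 4.14, 3.85, 3.89 and 4.01 CPM in Pilo, against 3.95, 4.65, 5.03 and 4.46 CPM in Mock (exonic log2 fold change -0.19 ± 0.14 (SE), adjusted p = 0.326). Both pairs of groups overlapped, and in the second table Eif3j2 had only 17, 4, 5 and 5 exonic counts in Pilo, against 17, 12, 13 and 20 in Mock, and no intronic count. Eif3j1 also overlaps Spg11 on the other strand, which fell (-0.41 ± 0.070 (SE), adjusted p = 6.67e-04).

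Introns of 6 eIF3 genes rose and of 3 fell. Eif3a introns had 35.7, 27.8, 28.8 and 26.1 CPM in Pilo, against 20.0, 14.9, 12.4 and 14.7 CPM in Mock (intronic log2 fold change 0.93 ± 0.15 (SE), adjusted p = 2.47e-04). Eif3b introns had 120.2, 118, 168 and 140.3 CPM in Pilo, against 79.5, 77.3, 92.8 and 80.8 CPM in Mock (intronic log2 fold change 0.73 ± 0.12 (SE), adjusted p = 2.29e-04). Eif3f introns had 69.3, 58.6, 66.2 and 60.5 CPM in Pilo, against 41.1, 36.1, 38.6 and 40.1 CPM in Mock (intronic log2 fold change 0.71 ± 0.10 (SE), adjusted p = 8.61e-05). Pilo was above Mock in every sample, and in all 3 genes the exonic change was the lower (-0.53, -0.26 and -0.28 for exonic minus intronic, adjusted p = 0.0018, 0.0277 and 0.0126). For Eif3b this difference was lost without any of 5 single libraries (Pilo 3, Pilo 4, Mock 1, Mock 2 or Mock 4). Eif3h introns had 85.9, 102, 81.0 and 79.3 CPM in Pilo, against 61.3, 56.9, 57.6 and 53.7 CPM in Mock (intronic log2 fold change 0.60 ± 0.11 (SE), adjusted p = 3.69e-04). Eif3i introns had 51.5, 46.1, 56.5 and 49.0 CPM in Pilo, against 33.3, 34.6, 43.0 and 37.4 CPM in Mock (intronic log2 fold change 0.45 ± 0.12 (SE), adjusted p = 0.00529). Eif3m introns had 62.2, 59.7, 55.2 and 59.8 CPM in Pilo, against 42.7, 42.1, 35.5 and 31.8 CPM in Mock (intronic log2 fold change 0.64 ± 0.12 (SE), adjusted p = 4.77e-04). All were higher in every Pilo sample, and of these 3 genes only Eif3m passed the test of the difference between regions. Its exonic change was 0.19 ± 0.083 (SE), and exonic minus intronic -0.48 ± 0.085, adjusted p = 0.00127. For Eif3h and Eif3i exonic minus intronic was -0.14 and -0.16 (adjusted p = 0.163 and 0.226). Eif3m overlaps Ccdc73 on the other strand, which fell by 0.94 ± 0.30 (SE) on the log2 scale, adjusted p = 0.0288.

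Lower introns were found for Eif3j1, Eif3k and Eif3l. Eif3j1 introns had 32.7, 25.0, 27.6 and 31.0 CPM in Pilo, against 42.0, 44.8, 45.2 and 47.1 CPM in Mock (intronic log2 fold change -0.62 ± 0.11 (SE), adjusted p = 5.62e-04). Eif3k introns had 68.7, 81.3, 78.9 and 67.8 CPM in Pilo, against 87.3, 103, 113 and 93.0 CPM in Mock (intronic log2 fold change -0.42 ± 0.11 (SE), adjusted p = 0.0062). Eif3l introns had 56.5, 38.7, 51.3 and 48.7 CPM in Pilo, against 59.0, 61.8, 65.4 and 57.6 CPM in Mock (intronic log2 fold change -0.32 ± 0.12 (SE), adjusted p = 0.0405). Pilo was below Mock in every sample in each, and the call of Eif3l introns held only without Pilo replicate 1 or Mock replicate 4 and was lost with RLE size factors (adjusted p = 0.053). Eif3e introns had 84.5, 91.1, 58.5 and 58.5 CPM in Pilo, against 81.6, 111, 73.8 and 85.4 CPM in Mock (intronic log2 fold change -0.27 ± 0.16 (SE), adjusted p = 0.193). Those groups overlapped and passed only with the replicate block (adjusted p = 0.00933), while the exonic change was higher than the intronic one for Eif3e (0.52 ± 0.11 (SE), adjusted p = 0.00361) and for Eif3j1 (0.42 ± 0.085, adjusted p = 0.00313).

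Among the genes of eIF4F and its helicases, 4 rose and 2 fell. Both falls encode cap-binding proteins: Eif4e, the cap-binding subunit itself, and Eif4e2 (4EHP), which binds the cap without eIF4G and represses the mRNA. Eif4e2, at chr1:87213914-87240488 in GRCm38 (ENSMUSG00000026254), had 34.4, 32.3, 32.3 and 31.4 CPM in Pilo, against 53.4, 55.2, 60.0 and 49.1 CPM in Mock (exonic log2 fold change -0.74 ± 0.078 (SE), adjusted p = 2.23e-05). Every Pilo sample was below every Mock sample, and the 4 Pilo values lay close together. Eif4e averaged 67.5 ± 3.91 CPM in Pilo and 78.6 ± 2.89 CPM in Mock (SD, n = 4 each), with an exonic log2 fold change of -0.22 ± 0.069 (SE) and adjusted p = 0.0275. It was lower in every Pilo sample, by a smaller amount, and its call held without Pilo replicate 1 or Mock replicate 4 and was lost without each of the other 6 libraries. Eif4e3, another cap-binding relative, differed by -0.09 ± 0.10 (SE) and did not pass.

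The rises were Eif4a3, the helicase of the exon junction complex, Eif4b, which stimulates eIF4A, the helicase Eif4a1 and the scaffold Eif4g1. Eif4a3, at chr11:119288363-119300089 (ENSMUSG00000025580), had 36.6, 41.3, 36.4 and 37.4 CPM in Pilo, against 24.7, 24.9, 23.7 and 24.7 CPM in Mock (exonic log2 fold change 0.63 ± 0.075 (SE), adjusted p = 5.04e-05). Eif4b had 163, 176, 144 and 167 CPM in Pilo, against 122, 117, 113 and 119.7 CPM in Mock (exonic log2 fold change 0.46 ± 0.077 (SE), adjusted p = 5.85e-04). Both were higher in every Pilo sample. Eif4a1 had 225, 260.2, 186 and 218 CPM in Pilo, against 164, 177, 162 and 184 CPM in Mock (exonic log2 fold change 0.37 ± 0.10 (SE), adjusted p = 0.0104). Its paralog Eif4a2 had 599, 491, 439 and 487 CPM in Pilo, against 467, 442, 451 and 446 CPM in Mock (exonic log2 fold change 0.16 ± 0.093 (SE), adjusted p = 0.218). Eif4a1 did not overlap between groups; Eif4a2, which overlapped and passed only with the replicate block (adjusted p = 0.0447), was the higher per kilobase, at 94.5 CPM per kb in Pilo and 84.6 in Mock, against 51.3 CPM per kb in Pilo and 39.6 in Mock for Eif4a1. Of the exon windows of Eif4a1 28.4% also occur elsewhere, most often in the pseudogene Eif4a-ps4. Of those of Eif4a3 16.5% do, most often in Gm8994. Exons of Eif4a2 overlap Rfc4 on the other strand, which fell (-0.78 ± 0.19 (SE), adjusted p = 0.00664).

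Eif4g1 averaged 304 ± 13.6 CPM in Pilo and 260.2 ± 12.5 CPM in Mock (SD, n = 4 each), with an exonic log2 fold change of 0.22 ± 0.072 (SE) and adjusted p = 0.0304. Its groups did not overlap, and the call was lost without Pilo replicate 2, Pilo replicate 4 or Mock replicate 2 (adjusted p = 0.0749, 0.0743 and 0.083). The other scaffolds, Eif4g3 and the eIF4E-independent Eif4g2 (DAP5), and the helicase partner Eif4h differed by 0.18, 0.19 and 0.18. None passed in the test without the block. All 3 passed with the replicate block (adjusted p = 0.00603, 0.0101 and 0.00858). Eif4g3 also passed with DESeq2 (adjusted p = 0.0255), and Eif4g2 with summed exonic and intronic counts (adjusted p = 0.0383). Eif4h also passed with RLE size factors, DESeq2 or without Mock replicate 3 (adjusted p = 0.0497, 0.0146 and 0.0331).

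Introns of Eif4a3 had 67.8, 69.6, 75.7 and 67.8 CPM in Pilo, against 46.1, 50.3, 54.5 and 48.7 CPM in Mock (intronic log2 fold change 0.49 ± 0.10 (SE), adjusted p = 0.00103). Introns of Eif4b had 139, 136, 147 and 147 CPM in Pilo, against 103, 94.7, 98.4 and 102 CPM in Mock (intronic log2 fold change 0.52 ± 0.087 (SE), adjusted p = 2.78e-04). Both were higher in every Pilo sample, and the difference between their exonic and intronic changes did not pass (adjusted p = 0.296 and 0.312). Introns of Eif4g1 had 509, 519.6, 607 and 525 CPM in Pilo, against 349.7, 354, 417 and 379.6 CPM in Mock (intronic log2 fold change 0.53 ± 0.10 (SE), adjusted p = 4.95e-04). Introns of Eif4g2 had 216, 140.2, 175 and 172 CPM in Pilo, against 138, 119, 129 and 140.2 CPM in Mock (intronic log2 fold change 0.42 ± 0.12 (SE), adjusted p = 0.0106). The introns of both scaffolds were higher in every Pilo sample than in any Mock sample, for Eif4g2 only by a narrow margin, and the exonic change was the lower (-0.33 ± 0.075 (SE) and -0.24 ± 0.071, adjusted p = 0.00618 and 0.0221), the second lost without any of 5 single libraries (Pilo 1, Pilo 3, Pilo 4, Mock 1 or Mock 2). Introns of Eif4g3 had 398, 439, 424 and 467 CPM in Pilo, against 461, 477, 475 and 508 CPM in Mock (intronic log2 fold change -0.15 ± 0.087 (SE), adjusted p = 0.176). These overlapped and passed with the replicate block (adjusted p = 0.0216), and the exonic change was the higher (0.31 ± 0.062 (SE), adjusted p = 0.00315). Introns of Eif4e2 had 59.1, 48.9, 47.5 and 50.5 CPM in Pilo, against 94.5, 97.3, 86.8 and 76.4 CPM in Mock (intronic log2 fold change -0.78 ± 0.11 (SE), adjusted p = 6.49e-05). Introns of Eif4e had 121, 99.4, 92.9 and 105 CPM in Pilo, against 148, 157, 127 and 122 CPM in Mock (intronic log2 fold change -0.41 ± 0.11 (SE), adjusted p = 0.00888). Both cap-binding genes were lower in every Pilo sample in introns as in exons. Small nucleolar RNA genes lie inside Eif4a1, Eif4a2, Eif4g1 and Eif4g2, and also inside Eif3a and Eif5.

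None of the 4 genes whose proteins hold eIF4E away from eIF4G passed in exons. Their changes were -0.68 ± 0.25 (SE) for Eif4ebp1, -0.16 ± 0.10 for Eif4ebp2, -0.083 ± 0.18 for Eif4ebp3 and -0.014 ± 0.069 for Eif4enif1, the transporter that takes eIF4E into the nucleus. Eif4ebp1, the lowest of them per kilobase at 0.453 CPM per kb in Pilo and 0.722 in Mock, averaged 0.994 ± 0.172 CPM in Pilo and 1.58 ± 0.446 CPM in Mock (SD, n = 4 each) (adjusted p = 0.053, and 0.0168 with the replicate block). Introns of Eif4ebp1 had 1.29, 1.54, 1.74 and 1.75 CPM in Pilo, against 2.86, 1.99, 2.47 and 3.13 CPM in Mock (intronic log2 fold change -0.72 ± 0.26 (SE), adjusted p = 0.0374). Pilo was below Mock in every sample there, and the call held only without Mock replicate 2 and was absent with DESeq2 (adjusted p = 0.066). Of the exon windows of Eif4ebp3, 65.5% also occur in another gene, most often in the overlapping gene AC115631.1, so the counts of Eif4ebp3 are uncertain.

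The late factors Eif6, Eif5 and Eif5a rose. Eif6, which keeps the large subunit from joining too early, lies at chr2:155819832-155826925 (ENSMUSG00000027613) and had 28.4, 31.5, 25.9 and 27.7 CPM in Pilo, against 19.5, 17.1, 17.2 and 15.7 CPM in Mock (exonic log2 fold change 0.71 ± 0.094 (SE), adjusted p = 1.17e-04). Eif5a, the hypusine-carrying factor that helps elongation and termination, had 107, 122, 98.2 and 103 CPM in Pilo, against 77.7, 77.9, 81.8 and 81.7 CPM in Mock (exonic log2 fold change 0.43 ± 0.078 (SE), adjusted p = 0.00103). Eif5, the GTPase-activating protein of eIF2, averaged 277 ± 34.9 CPM in Pilo and 193 ± 18.6 CPM in Mock (SD, n = 4 each), with an exonic log2 fold change of 0.52 ± 0.10 (SE) and adjusted p = 0.00181. All 3 were higher in every Pilo sample. Eif6 overlaps the antisense gene Gm16098, which was not among the genes tested. The second hypusine factor, Eif5a2, had 13.7, 10.0, 15.5 and 12.1 CPM in Pilo, against 13.9, 11.6, 16.0 and 13.3 CPM in Mock (exonic log2 fold change -0.10 ± 0.14 (SE), adjusted p = 0.638). Its exonic groups overlapped, and it was the lower of the pair per kilobase, at 2.55 CPM per kb in Pilo and 2.73 in Mock, against 45.3 CPM per kb in Pilo and 33.6 in Mock for Eif5a. Eif5b, the GTPase of subunit joining, differed by 0.023 ± 0.079 (SE).

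Introns of Eif6 had 57.8, 46.3, 58.8 and 50.7 CPM in Pilo, against 39.8, 36.1, 42.3 and 39.5 CPM in Mock (intronic log2 fold change 0.44 ± 0.11 (SE), adjusted p = 0.00525). Introns of Eif5a had 93.3, 83.8, 114 and 91.5 CPM in Pilo, against 61.4, 59.4, 73.0 and 65.0 CPM in Mock (intronic log2 fold change 0.56 ± 0.11 (SE), adjusted p = 0.00103). Introns of Eif5 had 53.2, 44.6, 58.7 and 50.6 CPM in Pilo, against 37.3, 24.4, 29.5 and 31.6 CPM in Mock (intronic log2 fold change 0.76 ± 0.14 (SE), adjusted p = 4.43e-04). Pilo was above Mock in every sample, and in Eif5 the intronic rise was above the exonic one (-0.27 ± 0.078 (SE), adjusted p = 0.0194), a difference lost without Pilo replicate 2, Pilo replicate 3 or Mock replicate 2. Introns of Eif5a2 had 3.58, 1.88, 1.03 and 1.67 CPM in Pilo, against 8.71, 7.18, 3.78 and 3.76 CPM in Mock (intronic log2 fold change -1.51 ± 0.36 (SE), adjusted p = 0.00346). They were lower in every Pilo sample, the largest intronic change of any of the 48 members, and the exonic change was the higher one; exonic minus intronic was 1.36 ± 0.31 (SE), adjusted p = 0.00749.

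Per kilobase of merged exons, levels of initiation factor genes differed widely within these nuclei. The highest was Eif4a2, at 94.5 CPM per kb in Pilo and 84.6 in Mock, followed by Eif2s3y, at 67.2 CPM per kb in Pilo and 64.6 in Mock, and Eif1, at 59.2 CPM per kb in Pilo and 42.7 in Mock; the lowest were Eif4ebp1, at 0.453 CPM per kb in Pilo and 0.722 in Mock, and Eif2b3, at 1.27 CPM per kb in Pilo and 1.32 in Mock. By role the median was highest for eIF4F and the helicases, at 31.7 CPM per kb in Pilo and 26.4 in Mock, and it was 11.2 in Pilo and 12.4 in Mock for eIF3, and 5.02 in Pilo and 6.36 in Mock for eIF2 and its relatives.

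**Figure D4:**
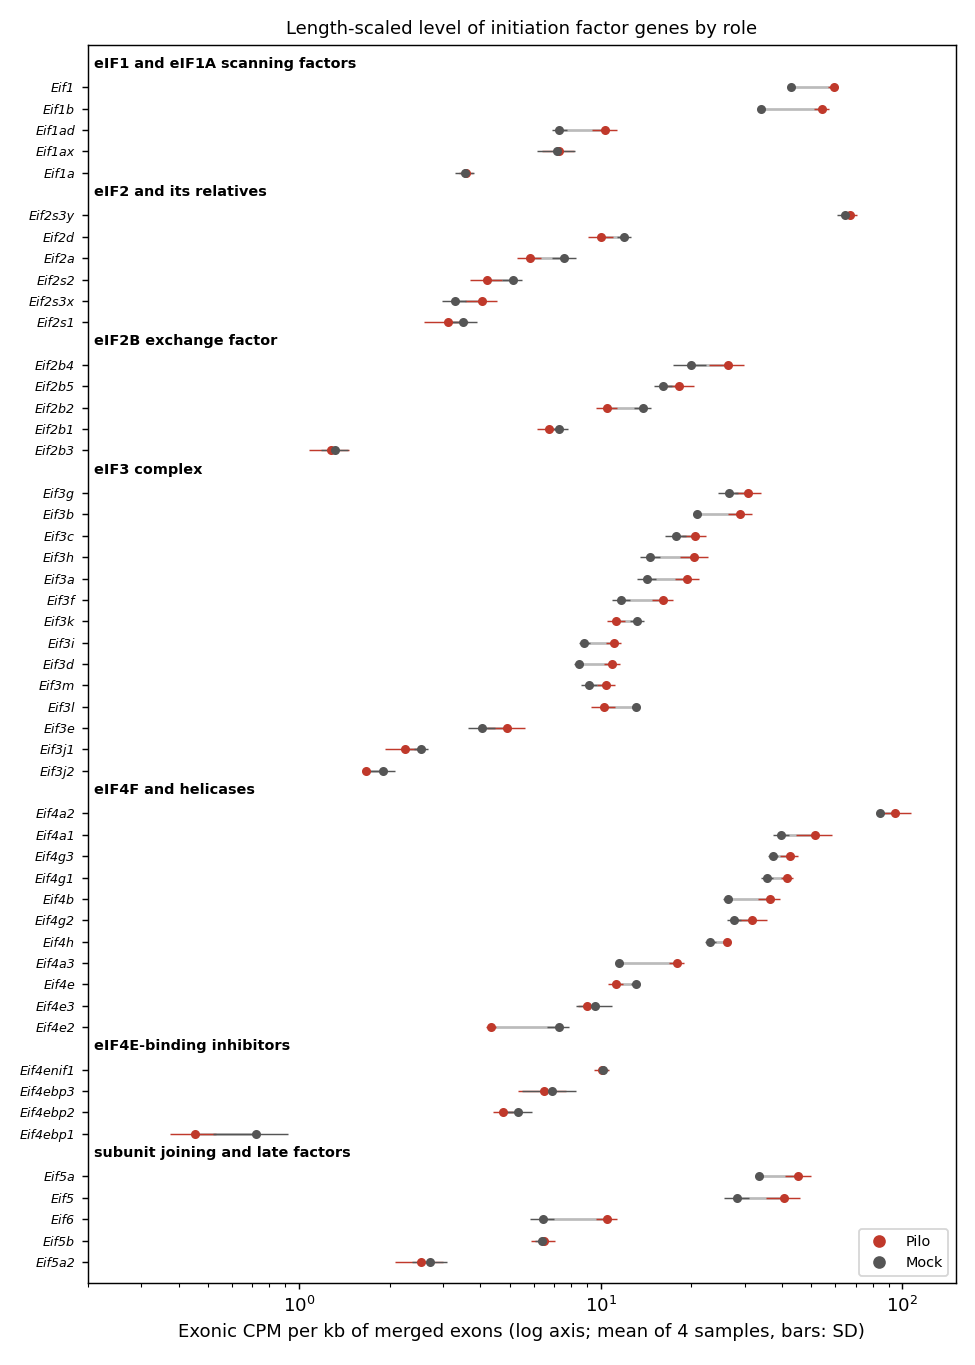
Exonic CPM per kb of merged exons (log axis) of the 50 initiation factor genes by role, mean of 4 samples with SD as bars, Pilo in red and Mock in grey, joined by a line. Eif4a2 is the highest and Eif4ebp1 the lowest in both groups, and the widest gaps between groups are those of Eif4e2, Eif6, Eif4ebp1, Eif1b and Eif4a3.

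Genes that act on the same step were read from lists, each beside the 15.6% of all genes that rose and the 16.2% that fell. Of 8 genes for eIF2 kinases, their helpers and the phosphatase subunits, 4 rose and none fell, with a median log2 fold change of 0.20, where that of all genes was 0.005. Among them was the endoplasmic reticulum kinase Eif2ak3, or PERK (log2 fold change 0.73 ± 0.073 (SE), adjusted p = 1.53e-05). The inducible phosphatase subunit Ppp1r15a, or GADD34, also rose (log2 fold change 1.39 ± 0.14 (SE), adjusted p = 1.86e-05). So did the constitutive phosphatase subunit Ppp1r15b (log2 fold change 0.37 ± 0.085 (SE), adjusted p = 0.00469). The last was Impact, an inhibitor of the kinase GCN2 (log2 fold change 0.39 ± 0.083 (SE), adjusted p = 0.00311). The integrated stress response is the program started when eIF2 is phosphorylated. Of 17 of its targets 9 rose and 1 fell with the replicate block, beside 23.8% and 23.2% of all genes. Without the block 8 rose and none fell, with a median of 0.35. The 4 of smallest p were Atf3, a transcription factor also induced by neuronal activity (log2 fold change 4.63 ± 0.29 (SE), adjusted p = 5.17e-07), Atf4, the central transcription factor of the program (log2 fold change 0.63 ± 0.076 (SE), adjusted p = 5.28e-05), the amino acid transporter subunit Slc3a2 (log2 fold change 0.44 ± 0.072 (SE), adjusted p = 4.89e-04) and the mTORC1 inhibitor Ddit4 (log2 fold change 0.67 ± 0.12 (SE), adjusted p = 0.00117).

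Of 15 mTORC1 and cap-binding regulators, 5 rose and 2 fell, with a median of 0.14. Rheb, the GTPase that activates mTORC1, rose (log2 fold change 1.08 ± 0.10 (SE), adjusted p = 8.50e-06), as did Mknk2, a kinase of eIF4E (log2 fold change 0.50 ± 0.11 (SE), adjusted p = 0.00511). Mknk1, the other eIF4E kinase, fell (log2 fold change -0.74 ± 0.072 (SE), adjusted p = 1.09e-05), as did Rps6kb1, the ribosomal S6 kinase (log2 fold change -0.37 ± 0.071 (SE), adjusted p = 0.00151). Of 18 partners that act on the mRNA, 4 rose and 1 fell, with a median of 0.15: Cpeb3, a translational regulator at synapses (log2 fold change 0.81 ± 0.071 (SE), adjusted p = 5.97e-06), and Dhx29, a helicase of the scanning subunit (log2 fold change 0.45 ± 0.076 (SE), adjusted p = 6.88e-04), rose, and the poly(A)-binding protein gene Pabpc4 fell (log2 fold change -0.49 ± 0.10 (SE), adjusted p = 0.00163).

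Of 9 other initiation and recycling genes, 1 rose and 2 fell, with a median of -0.069: the eIF5 mimic Bzw1 rose (log2 fold change 0.47 ± 0.072 (SE), adjusted p = 2.87e-04), and the recycling genes Abce1 (log2 fold change -0.31 ± 0.079 (SE), adjusted p = 0.00883) and Pelo (log2 fold change -0.73 ± 0.21 (SE), adjusted p = 0.0167) fell. Of 12 elongation and termination genes, 3 rose and 1 fell, with a median of 0.078. The release factor Etf1 (log2 fold change 0.68 ± 0.081 (SE), adjusted p = 5.22e-05) and the elongation factors Eef2 (log2 fold change 0.51 ± 0.071 (SE), adjusted p = 1.56e-04) and Eef1a1 (log2 fold change 0.32 ± 0.094 (SE), adjusted p = 0.0179) rose, and Eef2k, the kinase of eEF2, fell (log2 fold change -0.36 ± 0.089 (SE), adjusted p = 0.00746). In all, 25 genes of the 6 lists rose and 6 fell, and with the replicate block 35 rose and 11 fell, beside 23.8% and 23.2% of all genes.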

How the data were processed

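Polyadenylated nuclear RNA of 4 Pilo and 4 Mock samples was sequenced from directional libraries. Read counts per gene were deposited by the authors as 1 table of exonic counts and 1 of exonic and intronic counts. The submitters' processing notes name Trimmomatic 0.39, STAR 2.7.1a, HTSeq 0.11.2, R 4.1.1, edgeR and mm10; whether counting used strand is not given in the sources used here. Gene names came from GENCODE vM21 and RefSeq GRCm38.p6; 241 of 55471 rows, with 0.00668% of counts, had none. Whole tables were fitted in edgeR 4.0.16 under R 4.3.3 (TMM, minimum count 10, robust quasi-likelihood F-test, Benjamini-Hochberg), after tests on simulated data, and DESeq2 1.42.0 was an alternative. CPM used TMM library sizes, and the depth of each sample limits precision to counting error beside the spread between samples. The difference between regions was an interaction with sample terms. Same-numbered samples deviated together (correlations 0.372 to 0.400, 0.437 to 0.489 and 0.319 to 0.470 in exonic, second exonic and intronic columns), so the numbers pair samples, though the labels name no batch. Pairs of replicates differed by more than their counting error, with chi-square values divided by degrees of freedom of 10.1 to 34.0. The labels do not say that samples came from separate mice, and the p-values rest on how far these samples vary, which may be technical. Per-sample values were given for the 12 members of smallest exonic p, for members past the intronic or region test and for paralog pairs. Members, lists and tests were chosen with earlier results of these data known.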

Additional observations from a re-analysis of the deposited data

Results flagged for a closer look

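In 9 of 196 groups of 4 samples, a sample lay apart from the other 3 by more than Dixon's 95% limit; chance gives about 1 in 20 such groups. In exons, Pilo replicate 1 was high for Eif3a (193 CPM, the other Pilo samples 159 to 164), Eif3l (42.2 CPM, against 35.2 to 36.4) and Eif3m (29.7 CPM, against 25.9 to 26.4). Eif4a3 was low in Mock replicate 3 (23.7 CPM, the other Mock samples 24.7 to 24.9), and Eif4enif1 was high in Mock replicate 2 (68.6 CPM, against 63.2 to 64.1). In introns, Eif2b5 was low in Pilo replicate 2 (51.4 CPM, the other Pilo samples 72.5 to 74.5), Eif4a2 was high in Pilo replicate 1 (123 CPM, against 82.4 to 87.9), Eif4g1 was high in Pilo replicate 3 (607 CPM, against 509 to 525) and Eif4e3 was high in Mock replicate 1 (41.0 CPM, the other Mock samples 35.3 to 35.6).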

How the results depend on the processing

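With the replicate block, 27 members rose in exons (17 without it), 13 had an exonic change above the intronic one (8 without it), and 11 genes of the pathway lists fell (6 without it). With 1 scaling factor per sample, 26 members had the exonic change above the intronic one and 1 below it (8 and 11 with separate factors), where 44.6% and 3.11% of all genes did. Among members called in 1 of these 2 fits, the difference turned its sign in Eif2b4 (0.19), Eif2d (0.19), Eif3g (0.22), Eif4b (0.16), Eif4enif1 (0.18) and Eif4g2 (0.0042). Turns of sign in members called in neither fit are not listed. No member called in exons or introns turned its sign there under RLE size factors, DESeq2, the other count filters, the block or any library left out. Some uncalled changes near 0 did, such as Eif1ax exons (0.014, and -0.075 without Mock replicate 2). Leaving out each library gave 16 to 20 exonic rises and 4 to 6 falls, 15 to 19 and 6 to 10 in the second table, 19 to 21 intronic rises and 11 to 12 falls, 6 to 10 exonic changes above and 8 to 13 below the intronic one, and 19 to 26 rises and 6 to 8 falls in the pathway lists. Over all genes those fits gave 2487 to 3113 exonic rises and 2356 to 3166 falls. They gave 1319 to 1744 exonic changes above and 1251 to 1691 below the intronic one. Limits: the smallest exonic changes called were 0.22 and -0.22 on the log2 scale, scaling is relative to the library average, and counts of near-identical copies are uncertain.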
